A study of Homo sapiens with 2 samples.

Results

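The olfactory receptor and beta-globin gene cluster at 11p15.4 was examined in the human cell line SUM-159, which derives from a triple-negative breast tumour. Its members were the rows of the deposited expression table that start on chromosome 11 between 4400000 and 6300000 (hg19) and whose symbol begins with OR51, OR52, OR56, HBB, HBD, HBG or HBE. There were 106 such rows among 60880, of which 44 belonged to OR51, 47 to OR52, 9 to OR56 and 6 to the globins. Of the 106, 58 were protein-coding and 48 pseudogenes by GENCODE release 29. The cluster was chosen by the difference in reads between the libraries, above all at OR52A1, so the differences below are descriptions and none was tested.

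Expression was measured by RNA sequencing in 1 library of PD-L1L2-SE deficient cells, named for a super-enhancer linked in the study's title to PD-L1 and PD-L2, and 1 library of cells given sgVector, the guide vector control. They are called deficient and sgVector cells here. Both come from SUM-159 cells, and the sources used here do not say whether a library stands for a clone or a pool. The libraries held 16381546 and 16206675 reads on genes. CD274, which encodes PD-L1, had 47 reads in deficient and 477 in sgVector cells, and PDCD1LG2, which encodes PD-L2, had 46 and 204, in the direction of the labels. VIM and CD44, genes of mesenchymal breast lines, had 32929 and 11277 reads in deficient cells and 62376 and 13430 in sgVector cells, whereas EPCAM, CDH1, ESR1 and PGR had at most 6 reads in either. ERBB2, which encodes the HER2 receptor, had 1690 reads in deficient cells and 1175 in sgVector cells. With 1 library per group no difference has a replicate check, and the 95% Clopper-Pearson intervals given cover counting error only.

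Olfactory receptors are G protein-coupled receptors of the nose, and each olfactory sensory neuron transcribes a single receptor allele while the other copies lie in silent chromatin. The families OR51, OR52 and OR56 belong to the class I or fish-like receptors, which sit together on 11p15.4. The beta-globin genes HBE1, HBG2, HBG1, HBD and HBB lie inside this receptor cluster, and in red cell precursors an upstream locus control region turns them on in order from embryonic to adult forms. OR51E2 is also transcribed outside the nose, in the prostate.

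How far the receptors differ in sequence bears on whether reads can be assigned to them. It is shown by a conserved stretch of the coding sequence, at the cytoplasmic end of the third membrane helix. The 39 bases are from GENCODE release 29 transcripts, at bases 358 to 396 of the coding sequence in OR52A1. Capitals mark bases that differ from OR52A1.
OR52A1: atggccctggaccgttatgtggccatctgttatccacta
OR52A5: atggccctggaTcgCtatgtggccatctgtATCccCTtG
OR52E2: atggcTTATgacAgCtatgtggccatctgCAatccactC
OR51E2: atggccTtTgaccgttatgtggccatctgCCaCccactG
OR51B4: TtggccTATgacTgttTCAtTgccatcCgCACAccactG
OR51B5: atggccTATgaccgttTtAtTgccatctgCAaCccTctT

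Even here the 5 other receptors differed from OR52A1 at 6 to 15 of 39 bases. Among the coding members of the cluster, over whole coding sequences, OR52A1 was nearest to OR52A5 at 74.4% identity, OR52E2 to OR52E4 at 69.0%, OR51E2 to OR51E1 at 64.3% and OR51B5 to OR51B6 at 71.4%. Pseudogenes, rows elsewhere and exon bases outside the coding sequence were not compared, and of the 9783 exon bases of OR52A1 936 are coding. Among 53 receptor members with a coding sequence the median pair shared 56.5% of bases. A single pair, OR51A2 and OR51A4, was above 95%, at 98.4%, and it had 1 read in all. HBG1 and HBG2 were 99.5% identical and HBB and HBD 93.0%, so reads of these pairs are uncertain.

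Most of the cluster had no reads in either library. Of the 106 members 63 had no read in either library, 32 had 1 to 9 reads over both and 11 had at least 10. A count of 0 allows up to 3 reads, or 0.183 per 1000000 reads in deficient and 0.185 in sgVector cells. Members with a read numbered 36 in deficient cells and 27 in sgVector cells. Of 747 olfactory receptor rows elsewhere in the genome 647 had no read in either library, so a lack of reads is not particular to the cluster. Of the 747, 69 had a read in deficient cells and 73 in sgVector cells. OR52K3P and OR52W1, the first and last members along the chromosome, had 0 reads, and OR52B3P, the nearest row of these families outside the window, had 2 reads in deficient cells and 1 in sgVector cells.

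Summed over all 106 members, zeros included, the cluster had 1131 reads in deficient cells and 399 in sgVector cells, or 69.0 and 24.6 per 1000000 reads. The share was 2.80-fold higher in deficient cells (95% interval 2.50 to 3.15). OR52A1 alone supplied 705 of the 1131 reads, and without it the sum was 426 against 297, 1.42-fold higher (1.22 to 1.65). The families differed. OR52 rows had 817 reads against 120, 6.74-fold higher (5.56 to 8.23), and OR51 rows 233 against 232, a ratio of 0.994 (0.825 to 1.20). Globin rows had 80 against 37, 2.14-fold higher (1.43 to 3.25), and OR56 rows 1 against 10. Pseudogenes had 39 against 19 reads, 2.03-fold higher (1.15 to 3.72), of which OR52A4P alone had 19 against 6.

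On the log2 scale of RPKM plus 0.1, 6 of the 11 members with at least 10 reads stood 2-fold or more above sgVector cells and 2 stood 2-fold or more below, and the median was 1.29. Over all 18591 rows with at least 10 reads, 3.82% were at least 2-fold higher and 6.43% lower, and the median was -0.06. Among rows with 10 to 100 reads the shares were 6.89% and 14.2%. The read minimum was met by 9 of the 11 in deficient cells alone and by 6 in sgVector cells alone, so some members entered through the library in which they are high. By the counting interval alone 6 of the 11 lay wholly above no change and 2, OR51B5 and OR56A3, wholly below, while 21.9% and 28.4% of all rows did so.

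**Figure D1:**
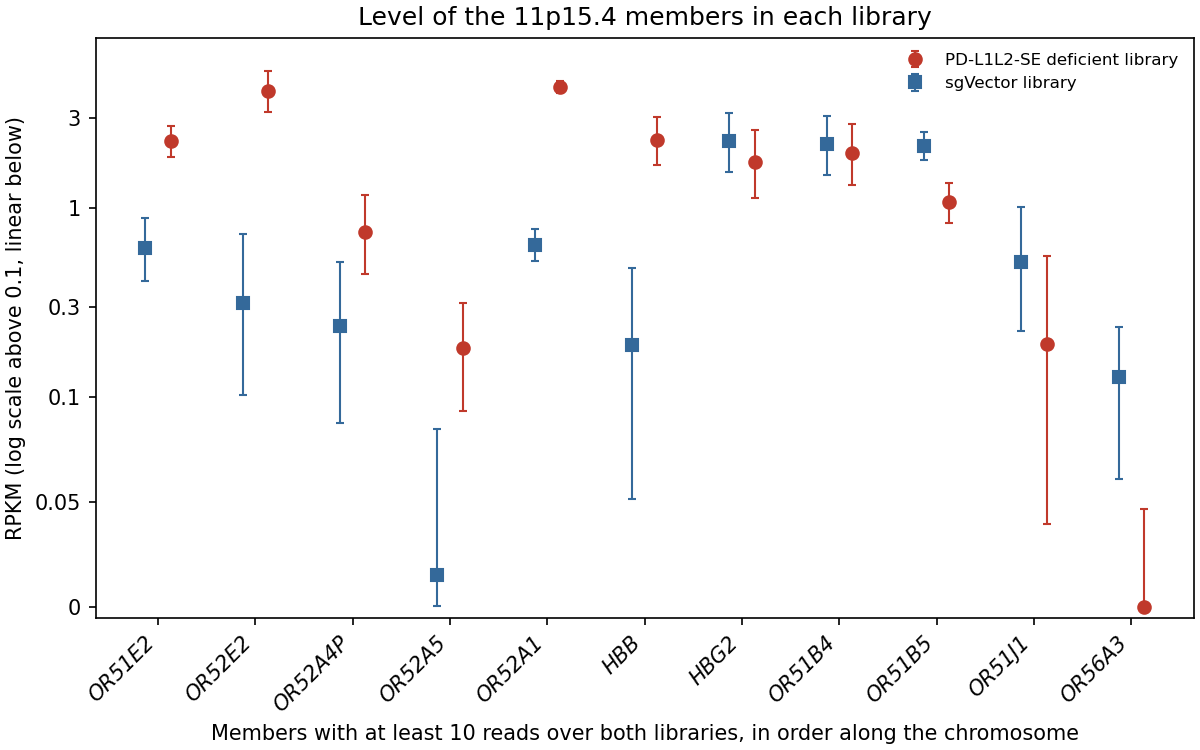
RPKM of the 11 members with at least 10 reads, in order along the chromosome, in deficient cells (circles) and sgVector cells (squares), on an axis that is logarithmic above 0.1 RPKM and linear below. Bars are 95% Poisson counting intervals. From OR51E2 to HBB the deficient library lies above the sgVector library, and from HBG2 to OR56A3 below it.

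The largest signal was at OR52A1 (ENSG00000182070, chromosome 11 from 5164449 to 5175987, minus strand, hg19). This class I receptor gene had 705 reads or 4.40 RPKM in deficient cells and 102 reads or 0.643 RPKM in sgVector cells. The share was 6.84-fold higher (5.55 to 8.50), with a log2 ratio of 2.60. Its row covers 9783 exon bases in 2 exons, none of which another row shares. The next members upstream of it, OR51A1P, OR52Z1P and OR51V1, had 0 reads in both libraries.

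The other OR52A rows stood in the same direction. OR52A5, which ends 4.86 kb before OR52A1 begins, had 12 reads or 0.181 RPKM in deficient cells and 1 read or 0.0153 RPKM in sgVector cells, a ratio of 11.9 (1.76 to 507). The transcribed pseudogene OR52A4P had 19 reads or 0.749 RPKM against 6 reads or 0.239 RPKM, 3.13-fold higher (1.20 to 9.58). Both are low, and a pseudocount of 1 RPKM took them under 2-fold, to 0.22 and 0.50 on the log2 scale.

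OR52E2 (ENSG00000176787, chromosome 11 from 5079880 to 5080857, minus strand, hg19) had the highest ratio of the cluster among members with at least 10 reads. This single-exon receptor gene had 67 reads or 4.18 RPKM in deficient cells and 5 reads or 0.315 RPKM in sgVector cells. The share was 13.3-fold higher (5.41 to 42.2), with a log2 ratio of 3.37. Per length its level in deficient cells, 4.18 RPKM, was close to the 4.40 RPKM of OR52A1. Its relatives in the cluster had almost no reads. OR52E4, OR52E5, OR52E6 and OR52E8 had 0 reads in both libraries, and OR52E1 had 1 read in deficient cells.

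OR51E2 (ENSG00000167332, chromosome 11 from 4701401 to 4719084, minus strand, hg19), the receptor gene known from the prostate, lay 361 kb from OR52E2. It had 108 reads or 2.27 RPKM in deficient cells and 29 reads or 0.616 RPKM in sgVector cells, 3.68-fold higher (2.43 to 5.76). Another row, OR51C1P, covers 6.16% of its exon bases. OR51E1, its nearest relative, had 0 reads in both libraries. The 24 members that lie between OR51E2 and OR51P1P in chromosome order had 6 reads in all.

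**Figure D2:**
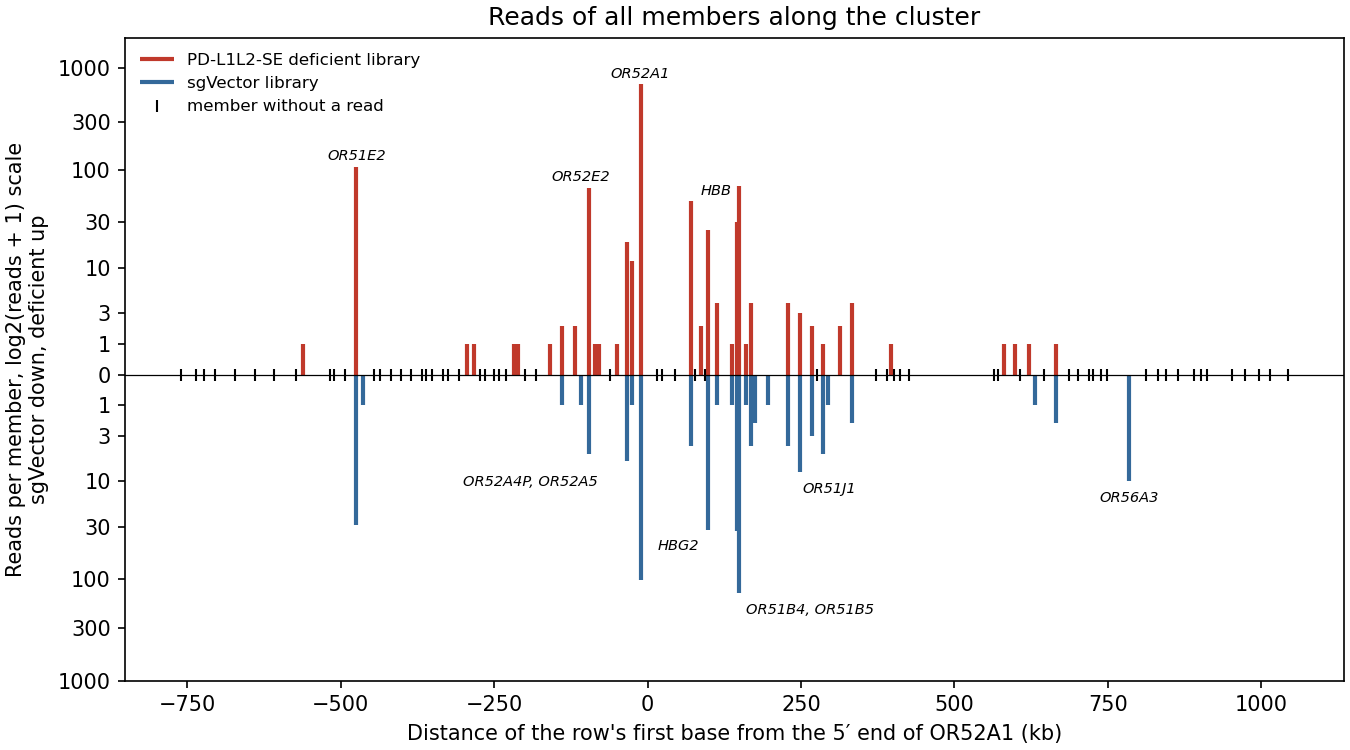
Reads of every member against the distance of its first base from the 5′ end of OR52A1, with the deficient library upward and the sgVector library downward on a log2(reads + 1) scale. Ticks on the zero line mark the 63 members without a read. OR52A1 reaches 705 against 102 reads, while OR51B5 reaches 70 against 138.

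The globin genes did not stand together. HBB (ENSG00000244734, chromosome 11 from 5246694 to 5250625, minus strand, hg19), which encodes adult beta-globin, begins 70.7 kb beyond OR52A1. It had 49 reads or 2.29 RPKM in deficient cells and 4 reads or 0.189 RPKM in sgVector cells, 12.1-fold higher (4.44 to 46.2). HBG2, a fetal gamma-globin gene, had 25 reads or 1.76 RPKM in deficient cells and 32 reads or 2.27 RPKM in sgVector cells. Its ratio of 0.773 had an interval that spanned no change (0.439 to 1.35). HBE1, the embryonic epsilon-globin gene, had 4 reads against 1, the pseudogene HBBP1 2 against 0, and HBD and HBG1 0 in both libraries.

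The gene models limit what the HBG2 and HBE1 rows show. In the deposited table the HBG2 row spans 252 kb and the HBE1 row 237 kb, since both hold distant exons that reach the start of OR51B5. Of the exon bases of HBG2 57.3% are shared with HBE1, OR51B5 or another row, and of those of HBE1 90.0%. HBB shares none. How reads on shared bases were counted was not analysed here, and the table does not show which exons held the reads.

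From HBG2 onward the ratio was below 1 at every member with at least 10 reads. OR51B4 (chromosome 11 from 5322244 to 5323176, hg19), a receptor gene of a single exon, had 30 reads or 1.96 RPKM in deficient cells and 33 reads or 2.18 RPKM in sgVector cells, a ratio of 0.899 (0.530 to 1.52). OR51B5 (from 5324674 to 5526882), whose row spans 202 kb, had 70 reads or 1.08 RPKM against 138 reads or 2.15 RPKM. Its share was 1.99-fold lower (1.48 to 2.70), just short of 2-fold. OR51B4, OR51B5 and HBG2 stood at 1.96, 1.08 and 1.76 RPKM in deficient cells and at 2.18, 2.15 and 2.27 RPKM in sgVector cells, so in the control they had the highest levels per length of the 11.

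Farther on, levels were low. The pseudogene OR51J1 had 3 reads against 8, a ratio of 0.371 whose interval spanned no change (0.0634 to 1.55). OR56A3, a class I receptor gene next to the TRIM5 row, had 0 reads in deficient cells and 10 or 0.128 RPKM in sgVector cells, which is at least 3.37-fold lower when its 0 counts as 3 reads and 2.27-fold lower at the limit of the counting interval. Of the 32 members with 1 to 9 reads 19 had more reads in deficient cells, 9 in sgVector cells and 4 the same number, with 43 reads against 31 in all. Those with at least 5 reads were OR51B2 and OR51M1, each with 4 against 4, OR51I1 with 1 against 5, OR52D1 with 4 against 2, OR51Q1 with 2 against 3 and HBE1.

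By steps of 100 kb, with all reads of a member placed at its lowest coordinate, the difference was concentrated in a few steps. The HBG2, HBE1 and OR51B5 rows span 252, 237 and 202 kb, so their reads may lie in other steps. The step from 5100000 to 5199999, led by OR52A1, had 737 member reads against 109, 6.69-fold higher (5.46 to 8.26). The step before it, led by OR52E2, had 74 against 7, 10.5-fold higher (4.83 to 26.9), of which OR52E2 alone had 67 against 5. All 7 members of that step had a read in at least 1 library, as did all 7 from 5300000 to 5399999. The step after that of OR52A1, with the globins, had 80 against 37. The next, from 5300000 to 5399999 and led by OR51B5, had 106 against 180, 1.72-fold lower (1.34 to 2.20), of which OR51B5 alone had 70 against 138. The step after that had 12 against 21 (0.831 to 3.94-fold lower). The step from 4700000 to 4799999, led by OR51E2, had 108 against 30, 3.56-fold higher (2.36 to 5.53). No other step had more than 10 member reads in either library.

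Nearly all reads came from minus-strand members. The 59 minus-strand members had 1106 reads against 366, 2.99-fold higher (2.65 to 3.37), and the 47 plus-strand members 25 against 33, a ratio of 0.749 (0.427 to 1.30). OR52A1, on the minus strand, alone had 705 of the 1106 reads and 102 of the 366. Of the 11 members with at least 10 reads 9 were on the minus strand, among them all 6 that were at least 2-fold higher. The sources used here do not say whether counting used strand.

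Upstream sequence is shown for OR52E2 and OR52A5, as members with higher values whose windows the RefSeq promoter table holds. Each run is the 250 bases before the RefSeq start, on the minus strand of GRCh38.p14, from 5059628 to 5059877 for OR52E2 and from 5138357 to 5138606 for OR52A5 on chromosome 11. Capitals mark matches to TATAAA or CCAAT on either strand.
OR52E2: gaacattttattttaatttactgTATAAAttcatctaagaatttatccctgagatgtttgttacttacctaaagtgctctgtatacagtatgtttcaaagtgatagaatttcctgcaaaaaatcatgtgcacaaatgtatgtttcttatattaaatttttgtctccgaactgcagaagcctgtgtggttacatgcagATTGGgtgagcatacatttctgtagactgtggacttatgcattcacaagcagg
OR52A5: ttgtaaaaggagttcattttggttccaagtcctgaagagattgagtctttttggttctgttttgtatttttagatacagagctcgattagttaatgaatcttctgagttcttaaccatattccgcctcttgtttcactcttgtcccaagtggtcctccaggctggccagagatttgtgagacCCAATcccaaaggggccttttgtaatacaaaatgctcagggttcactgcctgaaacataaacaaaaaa

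In OR52E2 TATAAA began 227 bases and the CCAAT match 53 bases before the RefSeq start, and in OR52A5 the CCAAT match began 68 bases before it. In length the single exon of the OR52E2 row matches its coding sequence plus a stop codon. Its start is therefore probably the start codon, not a known transcription start, and its distances may not be promoter distances. TATAAA was in 39.5% of the 38 member windows, against 10.7% of all 35116 windows, and CCAAT in 36.8%, against 32.0%. AGATAA, the core of a GATA site, was in 28.9% of the members against 9.17%, and the homeodomain core TAATTA in 13.2% against 4.35%. CCCNNGGG, the core bound by EBF factors, was in 10.5% against 17.1%. All 5 were searched on both strands. The member windows had a median GC content of 40.4%, against 58.0% over all windows, and the part of base composition in these shares was not tested. How many member windows end at a start codon was not counted, so the shares may not compare promoters with promoters.

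Other genes in the window had a ratio near 1 in sum. The 33 rows in the window that are not members had 1932 reads against 1793 (ratio 1.07, interval 0.999 to 1.14). The tripartite motif genes TRIM21 (239 reads against 257) and TRIM68 (231 against 190), which lie before OR51E2 along the chromosome, had log2 ratios of -0.12 and 0.26. TRIM6 and TRIM22, genes of antiviral proteins beyond the OR51B group, had 49 reads against 16 and 464 against 214, 3.03-fold (1.69 to 5.71) and 2.15-fold (1.82 to 2.53) higher, between members that had almost no reads. A pseudocount of 1 RPKM took both under 2-fold, to 0.49 and 0.84 on the log2 scale. TRIM5, an antiviral gene of the same group, had 368 against 489, 1.34-fold lower (1.17 to 1.54), and FHIP1B, near the end of the window, 516 against 576 with a log2 ratio of -0.17. Closer to OR52A1, the long non-coding row ENSG00000236897 had 8 reads against 0, at least 2.64-fold higher with 3 reads set for 0 and 1.69-fold higher at the limit of the counting interval. The matrix metalloproteinase gene MMP26, whose row spans many OR51 members, had 5 against 0. These last rows were picked after their values were seen.

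Expressed protein-coding genes within 1 Mb of the window did not reach 2-fold. With a mean of at least 1 RPKM, the 5 genes below it ranged from -0.10 for PGAP2 to 0.32 for NUP98 on the log2 scale, with a median of 0.06. The 13 genes above it ranged from -0.93 for DNHD1 to 0.78 for APBB1, with a median of -0.15. Over 213 such genes in the first 50 Mb of chromosome 11 the median was -0.04, with 8 at least 2-fold higher and 4 lower. Over all 10576 such genes of all chromosomes the median was -0.03, with 222 at least 2-fold higher and 219 lower. The lack of genes past 2-fold in the flanks is therefore not particular to them.

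**Figure D3:**
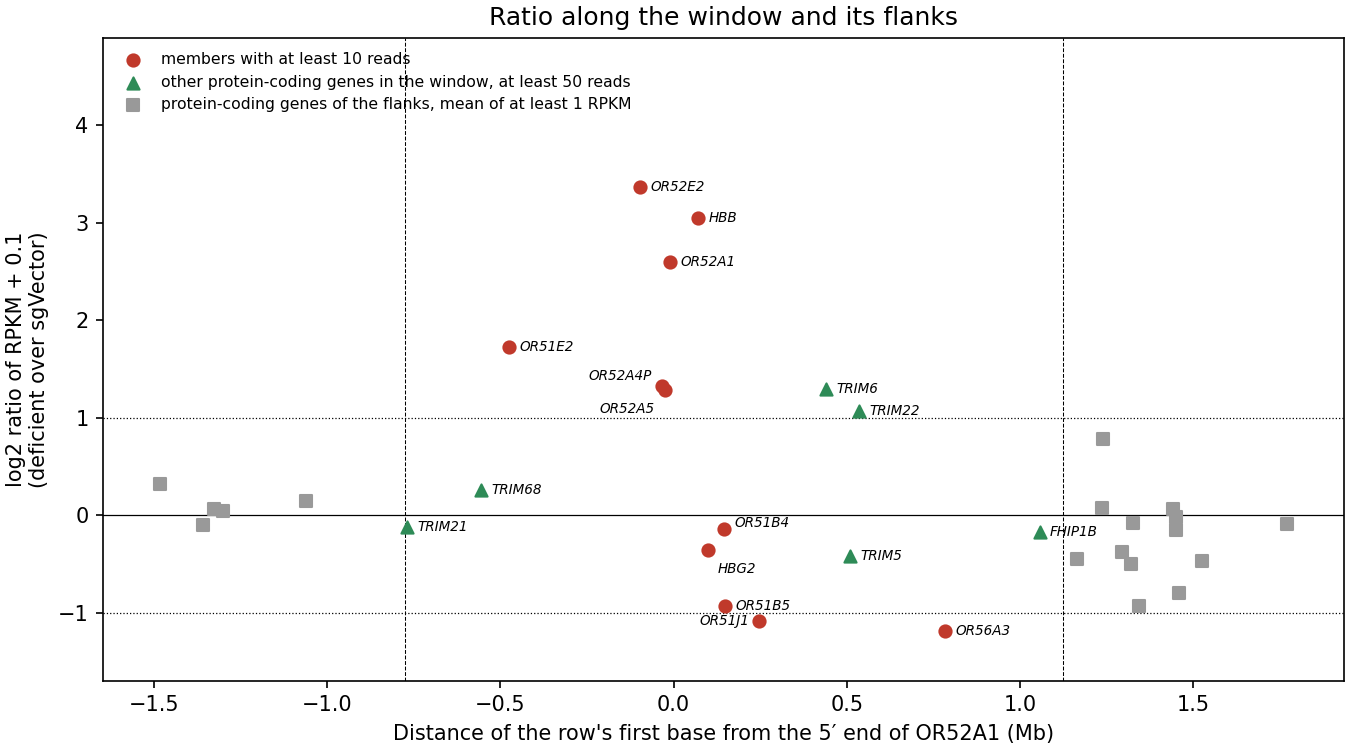
Log2 ratio of RPKM + 0.1, deficient over sgVector, against distance from the 5′ end of OR52A1 in Mb, for members with at least 10 reads (circles), other protein-coding genes in the window with at least 50 reads (triangles) and expressed flanking genes (squares). Dashed lines mark the window and dotted lines 2-fold. The members from OR51E2 to HBB lie above 1, and the flanking genes between -0.93 and 0.78.

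Olfactory receptor rows elsewhere in the genome did not have this excess. The 747 such rows had 488 reads in deficient cells and 557 in sgVector cells, 1.15-fold lower (1.02 to 1.31) in deficient cells, and 12 had at least 10 reads. Of these 12 16.7% were at least 2-fold higher, OR10AB1P on chromosome 11 with 19 reads against 6 and OR2L3 on chromosome 1 with 11 against 3, and 0 were at least 2-fold lower, all on the log2 scale of RPKM plus 0.1. By read share OR10A2 on chromosome 11, with 2 reads against 10, was 5.05-fold lower (1.08 to 47.4), and OR2A20P, with 9 against 3, 2.97-fold higher (0.741 to 17.04), which that scale gives as -0.81 and 0.75. OR2W3 on chromosome 1 had the most reads, 236 against 300. Without OR2W3 the sum of the rows elsewhere had a ratio of 0.970, whose interval spanned no change (0.812 to 1.16). The 269 rows elsewhere on chromosome 11 had 43 against 39 (ratio 1.09, interval 0.691 to 1.73).

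**Figure D4:**
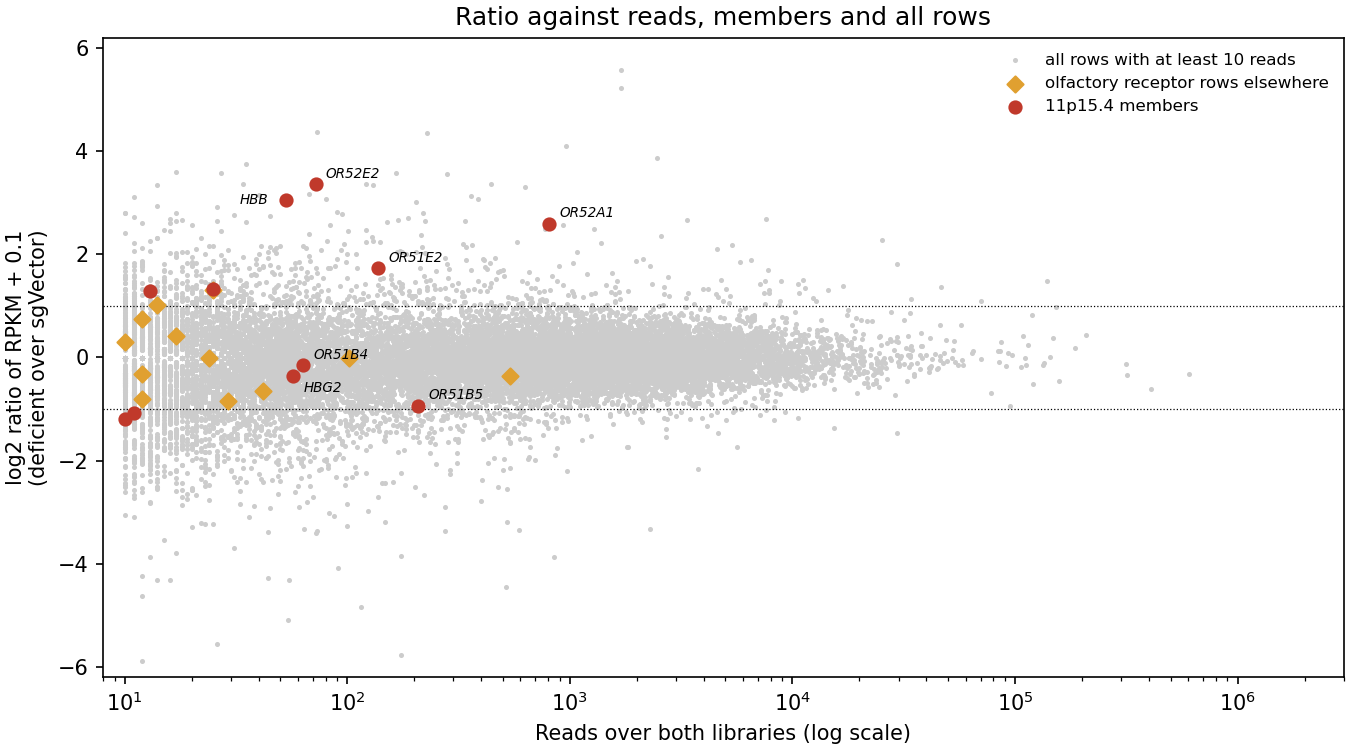
Log2 ratio of RPKM + 0.1 against reads over both libraries for all 18591 rows with at least 10 reads (small dots), olfactory receptor rows elsewhere (diamonds) and the 11 members (circles). Dotted lines mark 2-fold, and members with more than 50 reads are labelled. OR52E2, HBB, OR52A1 and OR51E2 lie at 3.37, 3.05, 2.60 and 1.73.

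Markers of cells that normally use these genes were scarce. Of 12 erythroid markers 7 had 0 reads in both libraries, among them GATA1, KLF1, AHSP and SLC4A1. ALAS2, which encodes the erythroid enzyme of heme synthesis, had 2 reads in deficient cells and 7 in sgVector cells, and the carbonic anhydrase gene CA1 had 0 and 6. Of 8 globin genes elsewhere HBA1, HBA2, HBZ, HBM and NGB had 0 reads in both libraries, and MB, which encodes myoglobin, had 16 reads against 56 (ratio 0.283, interval 0.151 to 0.4998). Its log2 ratio was -1.62, and -0.84 with a pseudocount of 1 RPKM. Among markers of olfactory sensory neurons OMP, CNGA2, RTP1 and STOML3 had 0 reads in both libraries. The other 3 are ADCY3, with 1125 reads against 938, GNAL, with 65 in each library, and GNG13, with 1 against 3.

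Among genes known to act on globin or receptor genes few were past 2-fold. Over all rows with at least 10 reads 3.82% were at least 2-fold higher and 6.43% lower, so a low count is not particular to these lists. Of 24 globin regulators 17 had at least 10 reads and 0 of these were past 2-fold on the log2 scale of RPKM plus 0.1, with a median of 0.16. On that scale NFE2 and MBD2 stood highest at 0.73 and 0.53, and MYB and ATF4 lowest at -0.76 and -0.42. The pseudocount holds back low rows. By read share SOX6, with 18 reads against 3, was 5.94-fold higher (1.73 to 31.5) and MYB, with 13 against 28, 2.18-fold lower (1.09 to 4.58). SOX6, a repressor of fetal globin, was picked after its values were seen. Of 21 genes of olfactory receptor expression and signalling 10 had at least 10 reads, and 2 were at least 2-fold higher. They were EBF4 and EBF1, genes of EBF transcription factors, at 4.97-fold (3.46 to 7.33) and 3.34-fold (2.69 to 4.18), with 181 reads against 36 and 368 against 109. CNGB1 and KDM1A stood lowest at -0.44 and -0.29. All 30 heterochromatin genes had at least 10 reads, with a median of -0.07. The DNA methyltransferase gene DNMT3B, at 134 reads against 353, was 2.66-fold lower (2.18 to 3.27) and was the only one past 2-fold. KMT5C followed at -0.82, and MPHOSPH8 and SETDB2 stood highest at 0.86 and 0.70. Whether these differences bear on the cluster was not tested.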

How the data were processed

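The authors deposited RPKM values for 2 libraries, reads per kilobase of gene length and per 1000000 reads on genes, with exon coordinates, strand and length per the file headers. GRCh37, hg19, Subread and featureCounts 1.6.4 are named per the submitters' processing notes. An aligner, annotation release, strand setting and rule for reads with several matches were not given in the sources used here. The smallest steps of RPKM times length recovered whole reads, with 100% of values within 1e-06 of a whole number, and these reads served for sums, minimums and intervals.

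Symbols for 92.7% of 60839 rows came from a gene name table, after 41 pseudoautosomal rows were left out, and gene types, GC content and coding sequences from GENCODE release 29, without its coordinates. RefSeq proteins were not used here. Folds in the text are ratios of read shares. Calls used log2 ratios of RPKM + 0.1 of at least 1 or at most -1 with at least 10 reads over both libraries. With 1 library per group no p-value was computed. Reads copied by PCR cannot be told from separate molecules, so intervals and floors of 3 reads cover counting error only.

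The members and lists were chosen with earlier results of these data known. Named were the 20 members with the most reads where values allow, the globin genes, OR51A2 and OR51A4, other protein-coding rows in the window with at least 50 reads, CD274 and PDCD1LG2, and the 2 highest and 2 lowest genes of a list. Alternatives were other scalings, pseudocounts, minimums, thresholds and gene sets. The steps were tested on simulated data, with scipy 1.17.1, pandas 2.3.3 and numpy 2.4.6, Biopython 1.88, matplotlib 3.10.9 and Python 3.11.15. 1 gene of the erythroid marker list is not reported here.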

Additional observations from a re-analysis of the deposited data

How the results depend on the processing

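The sum over all members stayed between 2.80-fold and 2.96-fold higher under 3 other scalings and with protein-coding members alone. It was 1.42-fold without OR52A1 and 4.60-fold without the members whose exons overlap another row, among them OR51B5, OR51E2 and HBG2. The sum of the other rows in the window was a ratio of 1.15 without FHIP1B. Against 6 members at least 2-fold higher there were 3 at 4-fold, and between 4 and 9 under the other settings. Against 2 members at least 2-fold lower there were 0 with a pseudocount of 1 RPKM, 0 at 4-fold, 0 with a minimum of 20 reads, 4 with no minimum and 1 among protein-coding members. These lower calls rest on OR51J1 and OR56A3, with 11 and 10 reads. The median of the members with at least 10 reads was 0.22 with a pseudocount of 1 RPKM and 0 over all 106 members, most of which have no read. TMM scaling moved all ratios by 0.08 on the log2 scale. For 24 named genes 103 of 119 values stayed within the counting interval and 0 of those past 2-fold changed sign. With a pseudocount of 1 RPKM OR52A4P, OR52A5, OR51J1, OR56A3, HBE1, TRIM6, TRIM22 and MB were no longer past 2-fold, and OR51J1 was at -0.94 relative to rows of like length and GC content. No paired analysis was possible because each group has 1 library. Depth limits every member but OR52A1, OR51B5 and OR51E2, which alone had over 100 reads.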
